A study of Homo sapiens with 6 samples.

Results

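Autophagy delivers cytoplasm, damaged organelles and protein aggregates to the lysosome inside a double-membraned vesicle, the autophagosome. The transcripts of 39 genes of this pathway were followed in ZR-75-1 cells: the kinase complex that starts the process, the lipid kinase complex that marks the new membrane, the proteins that feed and elongate it, the LC3 and GABARAP proteins that are coupled to it, the receptors that bring cargo, and the proteins that join the finished vesicle to the lysosome. The genes were chosen by name, for their known roles and with earlier results of these data known, and all 39 were found among the 60656 genes of the count table. Low counts kept 4 of them out of the test, which left 35.

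The study asked how inhibition of CDK4/6, the kinases that release cells from G1, changes transcription in hormone receptor-positive breast cancer. ZR-75-1 is an established line of that kind, and the libraries used here came from its parental, unedited cells. There were 3 libraries of cells given the CDK4/6 inhibitor abemaciclib at 500 nM and 3 of cells given an equal volume of the solvent DMSO, each for 4 days and in the same serum-containing medium. The study's methods describe the replicates as independent, but a single cell line, a single dose and a single time limit what the groups represent, and RB1-knockout cells were not analysed here.

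Total counts per library were between 3317860 and 4013156, and a count of 0 allowed up to 3 counts, or 0.740 to 0.909 CPM (counts per library total, scaled by TMM). The biological coefficient of variation, the spread between libraries of a group beyond counting error, was 13.2% over all genes. Luminal markers were present in every library. For KRT8, a luminal keratin, the log2 fold change was −0.01 (adjusted P = 0.961). ESR1, which encodes the oestrogen receptor, rose by 0.83 on the log2 scale (adjusted P = 2.92e-07). Of the other keratins, KRT18 fell by 0.34 (adjusted P = 0.00515) and KRT19 rose by 0.45 (adjusted P = 0.000207). Of 8 markers of other cell types, 7 were at 0 in all 6 libraries, and COL1A1 was between 10.1 and 15.8 CPM. Of the proliferation genes, MKI67 fell by 6.71 and CCNA2 fell by 5.17 on the log2 scale, so both transcripts were almost gone from the treated libraries.

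In the usual order of events, the ULK kinase complex responds to nutrient and energy signals, the class III phosphatidylinositol 3-kinase complex produces the lipid PI3P on the forming membrane, and PI3P effectors of the WIPI family recruit the conjugation machinery. That machinery works as a pair of ubiquitin-like systems, in which ATG7 activates both ATG12 and the LC3 and GABARAP proteins, and the latter end up bound to the lipid phosphatidylethanolamine. Autophagy is controlled largely through phosphorylation and through this lipid coupling, so transcript levels describe the supply of components and not the rate of the process.

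A minority of the autophagy genes rose with abemaciclib, in 5 of the 7 steps. In each of these but the LC3 and GABARAP step, only 1 gene was higher. The calls of EPG5 and ATG12 depended on the settings. Of the 35 members tested, 7 were higher and 1 was lower (edgeR, adjusted P under 0.05), and 27 did not pass the threshold. Of all 10863 genes tested, 12.5% were higher and 13.3% were lower. The members' share of rises lay above the first value and their share of falls, at 2.86%, below the second. Whether either share differs from that of all genes was not tested, and the members were chosen with earlier results known. The count of 7 members higher was 5 to 8 when a library was left out and 6 with DESeq2. The 7 were GABARAPL1, WIPI1, MAP1LC3B, BECN1, GABARAPL2, EPG5 and ATG12, and the 1 was RB1CC1. The median log2 fold change was 0.16 over the members and −0.0018 over all genes tested, with 23 members above 0 and 12 below. Without abemaciclib replicate 2 the members' median was 0.0947. In a bulk sample, a change in the share of cells that hold a transcript and a change in its level per cell cannot be told apart.

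**Figure D1:**
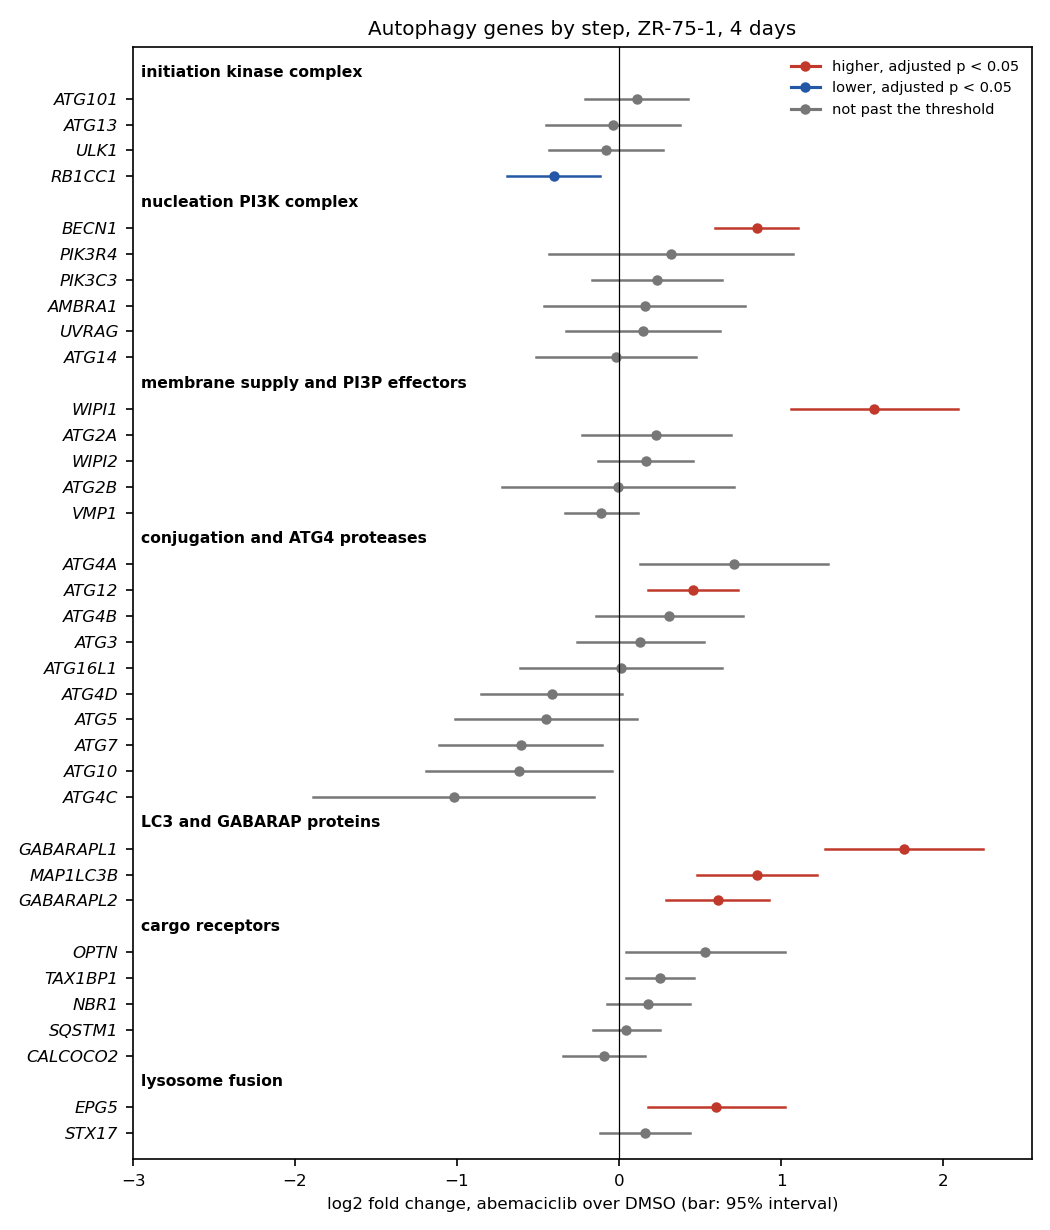
Log2 fold change of the 35 members tested, abemaciclib over DMSO, on the x axis, with members grouped by step on the y axis. Points are edgeR estimates and bars are 95% intervals, red for the 7 members that rose, blue for RB1CC1, which fell, and grey for the rest. All 3 tested LC3 and GABARAP genes lie above 0, and members of the conjugation step lie on both sides of it.

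Library by library, 10 members had every abemaciclib value above every DMSO value and 6 had every abemaciclib value below, while 19 overlapped. Over all genes tested, 19.1% were apart above and 20.1% apart below, against 28.6% and 17.1% of the members. The 8 members past the threshold were among the 16 whose groups did not overlap. The other 8 were 3 cargo receptors with higher values (NBR1, OPTN and TAX1BP1) and 5 genes of the conjugation step with lower values (ATG4C, ATG4D, ATG5, ATG7 and ATG10). The members together took 0.185% to 0.195% of the counts of the DMSO libraries and 0.202% to 0.224% of those of the abemaciclib libraries, so the treated libraries lay above the controls without overlap. Relative to the DMSO mean, the median member lay between 0.13 and 0.20 higher on a log2(CPM + 1) scale after treatment. The control values were 0.0115 to 0.0228, but that mean is formed from the controls themselves. They therefore lie near 0 by construction and give no independent spread.

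**Figure D2:**
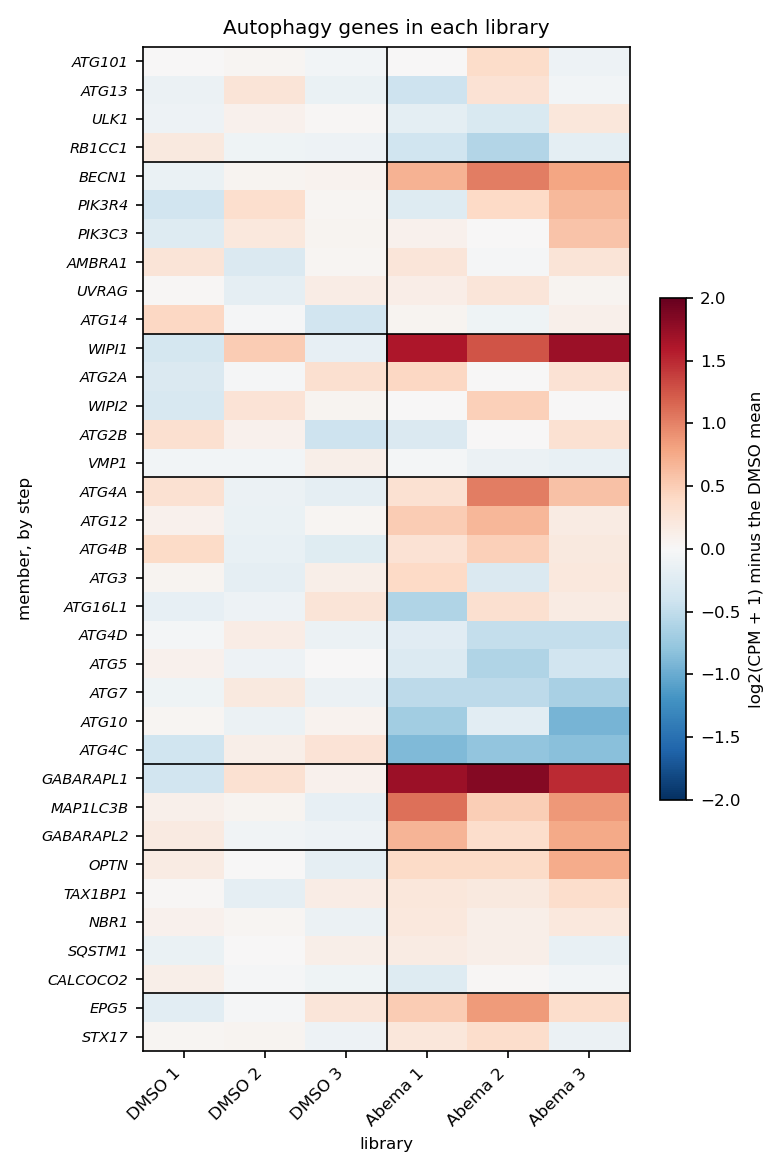
Each tested member (rows, grouped by step and separated by lines) in each library (columns). Colour gives log2(CPM + 1) minus the mean of the 3 DMSO libraries, red for higher and blue for lower. GABARAPL1 and WIPI1 are the reddest rows in all 3 abemaciclib libraries, and the lower rows of the conjugation block are blue in all 3.

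The LC3 and GABARAP genes encode the small ubiquitin-like proteins that decorate the autophagosome membrane and bind the receptors. This was the step with the clearest movement: 3 of its 5 genes could be tested, all 3 rose, and their median log2 fold change was 0.85. GABARAPL1 (chr12:10212458-10223128, plus strand), whose product acts in late stages of vesicle formation, had 6.96, 11.9 and 9.99 CPM with DMSO and 33.0, 36.3 and 28.4 CPM with abemaciclib. The lowest treated library was thus well above the highest control. The log2 fold change was 1.76 (SE 0.24, 95% interval 1.27 to 2.25, adjusted P = 1.54e-06), a 3.38-fold rise and the largest among the members tested.

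MAP1LC3B (chr16:87383953-87404779, plus strand) encodes LC3B, the protein most used to mark autophagosomes. Its values were 30.5, 29.4 and 25.1 CPM with DMSO and 62.0, 40.0 and 52.1 CPM with abemaciclib. Its groups did not overlap, although the treated libraries were spread more widely than the controls. It rose by 0.85 (SE 0.18, 95% interval 0.48 to 1.22, adjusted P = 0.000685). Its near-identical copy MAP1LC3B2 had 1.16 to 1.82 CPM with DMSO and 1.21 to 4.93 CPM with abemaciclib, too few to be tested, and reads could be divided between the copies in an unknown way.

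GABARAPL2 (chr16:75566375-75577881, plus strand), also called GATE-16 and linked to membrane traffic in the Golgi as well as autophagy, moved from 47.6, 39.8 and 38.8 CPM to 67.8, 53.8 and 71.3 CPM. Again no treated library reached down to a control. The log2 fold change was 0.61 (SE 0.16, 95% interval 0.29 to 0.93, adjusted P = 0.00412). It had the most counts of the step in the controls. Of the members not tested here, MAP1LC3A was at 0 in all 6 libraries and GABARAP had between 2 and 10 counts in a library. The annotated end of GABARAP shares 16.2% of its last 500 exonic bases with another gene on the same strand, which had 0 counts. Whether this overlap bears on the low GABARAP counts was not tested.

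The step as a whole, summed over its genes, had 86.1, 81.7 and 76.9 CPM with DMSO and 165, 132 and 153 CPM with abemaciclib. GABARAPL1 contributed more of this sum after treatment. Its counts were 0.146, 0.299 and 0.258 of those of GABARAPL2 in the DMSO libraries and 0.487, 0.674 and 0.398 in the abemaciclib libraries, a mean difference of 1.18 on the log2 scale. The ratio was thus higher in every treated library than in any control. This ratio and the 3 below were chosen after the values had been seen and are given as descriptions. An exact two-sided permutation test of each of the 4 gave P = 0.1 (0.1 adjusted over them), the smallest that 3 against 3 libraries allow. All 4 ratios separate the groups fully, so this value was fixed once they were chosen and adds no support.

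Promoters of risen members are shown, with that of ATG14, which did not pass the threshold, beside them. A promoter was printed only where it began at the RefSeq gene start and held no exon of another gene. This left out the risen BECN1 and ATG12, and ATG3, which did not pass the threshold. For EPG5 the table used here held no promoter. Each line gives the 150 bases before the RefSeq start (GRCh38.p14), 5′ to 3′ on the strand of the gene. Capitals mark the GC box GGGCGG or its reverse complement CCGCCC, a motif bound by Sp family factors, and in ATG14 the letters CACGTGAC, the reverse complement of GTCACGTG. GTCACGTG is the core of the CLEAR element, the motif of lysosomal and autophagy promoters bound by TFEB and TFE3, and it contains the E-box CACGTG. The windows are chr12:10212727-10212876 (plus) for GABARAPL1, chr16:87392186-87392335 (plus) for MAP1LC3B, chr16:75566229-75566378 (plus) for GABARAPL2, chr17:68457497-68457646 (minus) for WIPI1 and chr14:55411831-55411980 (minus) for ATG14. For all but ATG14, the GENCODE v44 gene begins upstream of the RefSeq start.
GABARAPL1: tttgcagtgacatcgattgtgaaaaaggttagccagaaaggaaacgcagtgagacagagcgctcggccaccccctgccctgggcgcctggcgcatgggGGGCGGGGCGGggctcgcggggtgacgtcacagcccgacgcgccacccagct
MAP1LC3B: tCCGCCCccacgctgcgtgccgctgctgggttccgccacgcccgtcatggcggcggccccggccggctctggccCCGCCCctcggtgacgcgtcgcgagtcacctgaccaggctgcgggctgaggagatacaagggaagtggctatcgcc
GABARAPL2: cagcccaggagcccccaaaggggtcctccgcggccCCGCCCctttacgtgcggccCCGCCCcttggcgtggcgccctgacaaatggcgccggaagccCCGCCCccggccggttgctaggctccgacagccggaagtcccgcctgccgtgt
WIPI1: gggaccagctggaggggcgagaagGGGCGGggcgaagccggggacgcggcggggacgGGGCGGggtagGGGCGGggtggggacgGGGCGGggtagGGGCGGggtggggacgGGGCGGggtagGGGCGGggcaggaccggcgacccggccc
ATG14: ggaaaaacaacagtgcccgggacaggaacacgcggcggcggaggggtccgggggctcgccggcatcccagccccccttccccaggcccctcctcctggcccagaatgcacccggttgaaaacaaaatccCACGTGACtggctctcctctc

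Both strands of the full RefSeq windows, 250 bases before to 50 after the start, were searched for 33 of the 39 members. The table used here held no promoter for the remaining 6. In the 150 bases printed, WIPI1 holds 7 GC boxes and 84.0% G and C, GABARAPL2 holds 3, MAP1LC3B 2, and GABARAPL1 2 that overlap by a single base. The GC box was in 21 of the 33 member promoters and in 44.6% of all 27305 promoters (72.7% of those of the genes tested). It was in 4 of the 6 promoters of risen genes that the table holds, and not in those of BECN1 and ATG12. The E-box and the CLEAR core were in 2 member promoters, ATG3 and ATG14, where 7.43% and 2.53% of all promoters held them (10.5% and 4.67% of those of the genes tested). In ATG14 the letters lie 21 to 14 bases before the start. Neither was found in those 6 promoters, nor were the E2F letters TTTCGCGC (0.546% of all promoters, ATG2A among the members) and TTTGGCGC (0.659%, no member), nor the FOXO letters GTAAACA (3.41%, CALCOCO2). No match says only that these letters are absent from these windows.

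At the other end of the pathway, the initiation step did not rise. The ULK1 complex holds a protein kinase and its partners ATG13, ATG101 and RB1CC1. Of 4 genes tested, 0 were higher and 1 was lower, with a median log2 fold change of −0.06. RB1CC1, also known as FIP200 and the scaffold of the complex, had 93.7, 77.2 and 76.3 CPM with DMSO and 61.7, 54.0 and 71.6 CPM with abemaciclib, the most counts of the step in the controls. The groups were apart, but the highest treated library lay close under the lowest control. RB1CC1 fell by 0.40 on the log2 scale (SE 0.14, adjusted P = 0.0338). DESeq2 did not call it (adjusted P = 0.0863). Nor did edgeR once DMSO replicate 1 (0.197) or 2 (0.056), or abemaciclib replicate 1 (0.0712) or 2 (0.184), was left out.

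ULK1, the kinase, had a log2 fold change of −0.08 (95% interval −0.43 to 0.27). ATG13, its regulatory partner, had one of −0.04 (−0.45 to 0.37), and ATG101, which binds ATG13, one of 0.11 (−0.21 to 0.43). These intervals leave out a doubling in either direction for each of these genes. ULK2, the second kinase, had only 3 to 13 counts in a library and was not tested.

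In the nucleation step, which makes PI3P, 1 of 6 genes passed the threshold. BECN1 (chr17:42810134-42833350, minus strand) encodes Beclin 1, the regulatory subunit around which the lipid kinase complexes are built. It had 63.2, 72.2 and 72.4 CPM with DMSO and 113, 141 and 120 CPM with abemaciclib, the most counts of its step, and the lowest treated library was far above the highest control. The log2 fold change was 0.85 (SE 0.13, 95% interval 0.59 to 1.11, adjusted P = 5.96e-06). The end of BECN1 is overlapped on the opposite strand by CNTD1, which had 0, 5 and 0 counts with DMSO and 2, 11 and 7 with abemaciclib. The part of this overlap in the BECN1 counts was not tested, and the CNTD1 counts were few beside those of BECN1.

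Its partners had smaller estimates and none passed the threshold, though the interval of PIK3R4 takes in the estimate of BECN1. The catalytic subunit PIK3C3 had a log2 fold change of 0.23 (95% interval −0.17 to 0.64), and the anchoring subunit PIK3R4 one of 0.32 (−0.43 to 1.07). ATG14, which directs the complex to autophagosomes, had −0.02 (−0.51 to 0.47), UVRAG, its counterpart in endosomal complexes, 0.15 (−0.33 to 0.62), and AMBRA1, a Beclin 1 regulator, 0.16 (−0.46 to 0.78). The ratio of BECN1 to PIK3C3 counts was 2.60, 2.11 and 2.37 with DMSO and 3.63, 4.78 and 2.72 with abemaciclib, with no overlap and a mean log2 difference of 0.62.

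Of 5 genes tested in the step of membrane supply and PI3P effectors, 1 passed the threshold. WIPI1 (chr17:68420948-68457513, minus strand) encodes a protein that binds PI3P on the forming membrane. It had 7.54, 14.6 and 8.78 CPM with DMSO and 32.4, 25.2 and 34.9 CPM with abemaciclib. The control libraries were low and every treated library was above them. The log2 fold change was 1.58 (SE 0.25, 95% interval 1.06 to 2.09, adjusted P = 1.93e-05), a 2.98-fold rise. ARSG overlaps its end on the opposite strand and had 6, 3 and 2 counts with DMSO and 7, 17 and 11 with abemaciclib, and the part of this in the WIPI1 counts was not tested.

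WIPI2, the relative that recruits ATG16L1, had 81.2, 123 and 105 CPM with DMSO and 102, 142 and 102 CPM with abemaciclib, and its groups overlapped (log2 fold change 0.17, 95% interval −0.13 to 0.46). The ratio of WIPI1 to WIPI2 counts was 0.0929, 0.119 and 0.0833 in the controls and 0.318, 0.177 and 0.340 in the treated libraries. It was higher in every treated library, by a mean of 1.46 on the log2 scale. VMP1, a lipid scramblase of the endoplasmic reticulum with the most counts of the step in the controls, had 123, 124 and 139 CPM with DMSO and 124, 118 and 115 CPM with abemaciclib (log2 fold change −0.11, 95% interval −0.34 to 0.12). The lipid transfer proteins ATG2A (0.23, −0.23 to 0.69) and ATG2B (−0.0047, −0.72 to 0.71) did not pass either. ATG9A, the scramblase carried on vesicles, was at 0 in all 6 libraries, and another annotated gene on its strand covers the whole of its end, and whether this bears on the count of 0 was not tested.

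**Figure D3:**
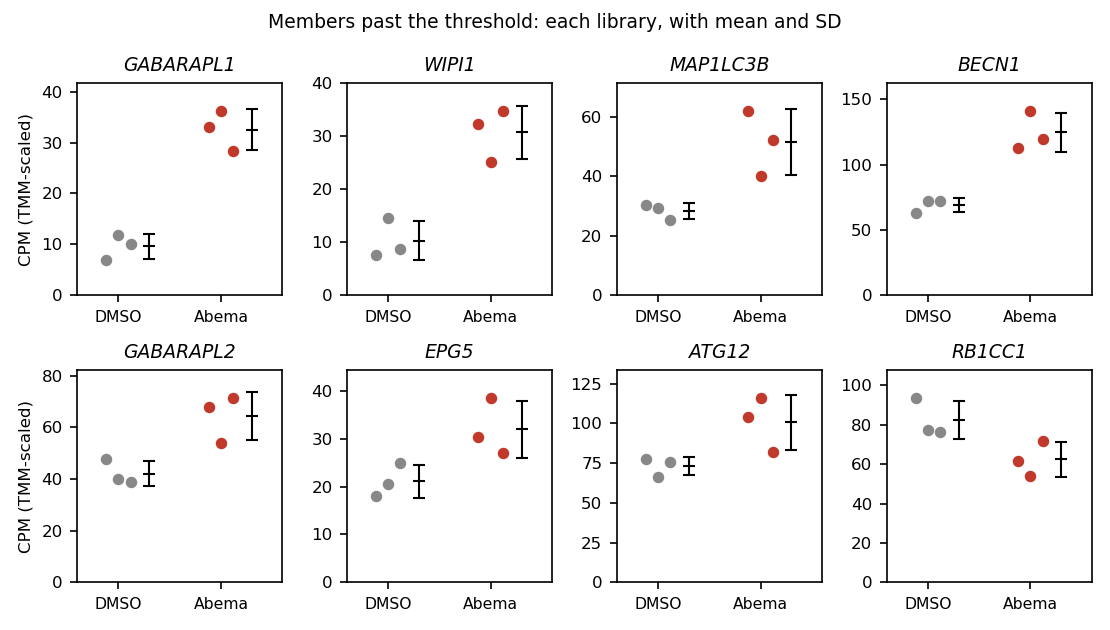
TMM-scaled CPM of the 8 members past the threshold in each of the 3 DMSO (grey) and 3 abemaciclib (red) libraries, on axes that start at 0. Black marks are the group mean with its SD. In all 8 panels the groups do not overlap, with the widest relative gaps for GABARAPL1, WIPI1 and BECN1 and the narrowest for RB1CC1, EPG5 and ATG12.

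Fold changes of the conjugation step lay on both sides of 0. Of its 10 genes, 1 rose past the threshold and 0 fell past it (edgeR). With unadjusted P below 0.05, 2 were higher and 3 lower, where 17.9% and 18.3% of all genes tested were. The step's median log2 fold change was −0.20. ATG12 (chr5:115828200-115841837, minus strand), the ubiquitin-like protein joined to ATG5, had 77.7, 66.5 and 75.4 CPM with DMSO and 104, 116 and 81.9 CPM with abemaciclib, the most counts of the step. Treated libraries were all above the controls, with abemaciclib replicate 3 close to them. The log2 fold change was 0.46 (SE 0.14, 95% interval 0.18 to 0.74, adjusted P = 0.0125). The call was lost without DMSO replicate 2 (adjusted P = 0.0895) and without abemaciclib replicate 2 (0.115).

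Log2 fold changes of ATG5, ATG7 and ATG10 lay below 0. ATG5, to which ATG12 is joined, had 15.4, 13.4 and 14.5 CPM with DMSO and 11.8, 9.13 and 10.8 CPM with abemaciclib (log2 fold change −0.45, adjusted P = 0.247). ATG7, the activating enzyme of both systems, had 17.7, 21.7 and 17.3 CPM and then 12.7, 12.8 and 11.6 CPM (−0.61, adjusted P = 0.0702). ATG10, the enzyme that passes ATG12 on to ATG5, had 16.2, 14.6 and 16.7 CPM and then 9.38, 13.6 and 7.84 CPM (−0.61, adjusted P = 0.110, or 0.0484 without abemaciclib replicate 2). For each of these genes every treated library lay below every control, yet none passed the threshold over all genes. The end of ATG7 is overlapped in full on the opposite strand by VGLL4, which had 124 to 188 counts with DMSO and 186 to 221 with abemaciclib, so the ATG7 values are uncertain.

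The ratio of ATG12 to ATG5 counts was 5.06, 4.98 and 5.19 in the controls, a narrow range, and 8.79, 12.7 and 7.58 in the treated libraries. It was higher in every treated library, with a mean difference of 0.90 on the log2 scale. ATG16L1, which binds the ATG12 and ATG5 conjugate, had a log2 fold change of 0.01 (95% interval −0.61 to 0.64), and ATG3, the enzyme that passes LC3 on to lipid, one of 0.13 (−0.26 to 0.52).

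The ATG4 proteases trim LC3 and GABARAP proteins before coupling and release them from lipid later. Their genes did not move together. ATG4C had 5.51, 8.32 and 9.39 CPM with DMSO and 3.63, 3.95 and 3.78 CPM with abemaciclib (log2 fold change −1.02, 95% interval −1.89 to −0.15, adjusted P = 0.0774, or 0.0293 with at least 10 counts required in every library). ATG4D had 24.1, 27.6 and 22.7 CPM and then 20.9, 17.5 and 17.6 CPM (−0.41, adjusted P = 0.160), but KRI1 covers 66.8% of its end on the opposite strand and also had fewer counts with abemaciclib, 38 to 51 against 64 to 71. ATG4A had 12.8, 9.21 and 8.78 CPM with DMSO and 12.7, 21.7 and 15.7 CPM with abemaciclib (0.71, adjusted P = 0.0656, or 0.0354 without abemaciclib replicate 1). ATG4B, the most active of these enzymes on LC3, had a log2 fold change of 0.31 (−0.14 to 0.77). ATG4C and ATG4D were thus lower in all treated libraries, while the ATG4A groups overlapped.

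**Figure D4:**
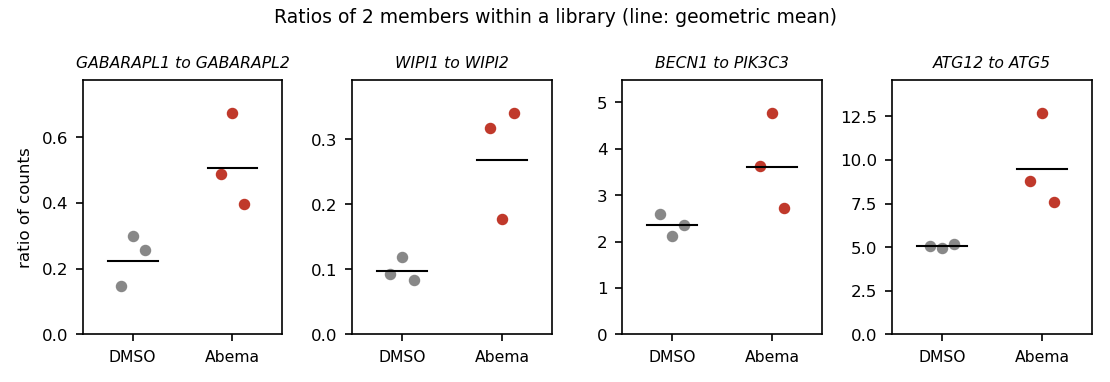
Ratio of the counts of a pair of members within each library, for GABARAPL1 to GABARAPL2, WIPI1 to WIPI2, BECN1 to PIK3C3 and ATG12 to ATG5, on axes that start at 0. Points are libraries (grey DMSO, red abemaciclib) and lines are geometric means of 3 libraries. In all 4 panels every abemaciclib library lies above every DMSO library.

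The cargo receptors tie ubiquitinated or otherwise marked cargo to LC3 and GABARAP proteins. None of the 5 passed the threshold in either direction (edgeR, 2 higher and 0 lower with unadjusted P below 0.05, against 17.9% and 18.3% of all genes). Their median was 0.18 on the log2 scale. SQSTM1, the receptor of ubiquitinated proteins that is itself degraded by autophagy, had the most counts, with 429, 475 and 511 CPM with DMSO and 528, 508 and 425 CPM with abemaciclib. The groups overlapped almost fully, and the log2 fold change was 0.05 with a 95% interval of −0.16 to 0.25. Its end is overlapped on the opposite strand by MRNIP, which had 16 to 30 counts with DMSO and 31 to 50 with abemaciclib.

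TAX1BP1, a receptor of protein aggregates, had 219, 191 and 238 CPM with DMSO and 252, 247 and 273 CPM with abemaciclib (log2 fold change 0.25, adjusted P = 0.0713, or 0.0458 without DMSO replicate 3). OPTN, a receptor in the removal of mitochondria and bacteria, had 15.7, 14.0 and 12.1 CPM and then 18.5, 18.3 and 23.8 CPM (0.53, adjusted P = 0.106). NBR1, a receptor related to SQSTM1, had 80.9, 79.0 and 70.3 CPM and then 89.2, 83.1 and 88.6 CPM (0.18, adjusted P = 0.321). In these genes all treated libraries were above all controls, by margins that the test over all genes did not call. CALCOCO2, also known as NDP52 and a receptor for bacteria and mitochondria, had a log2 fold change of −0.09 (95% interval −0.35 to 0.16).

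Both genes of fusion with the lysosome were tested. EPG5 (chr18:45800581-45967329, minus strand), a tether that holds the vesicle to the lysosome, had 18.0, 20.5 and 24.8 CPM with DMSO and 30.3, 38.5 and 27.0 CPM with abemaciclib. Its groups lay apart by a small margin. The log2 fold change was 0.60 (SE 0.21, 95% interval 0.18 to 1.02, adjusted P = 0.0313), and DESeq2 did not call it (adjusted P = 0.0825). Leaving out DMSO replicate 1 (0.136) or 2 (0.0976), or abemaciclib replicate 2 (0.194), also ended the call. STX17, the SNARE protein of the autophagosome, had 77.7, 78.1 and 70.6 CPM with DMSO and 88.0, 96.2 and 69.2 CPM with abemaciclib, and its groups overlapped (0.16, −0.11 to 0.44).

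A further 45 genes of the pathway, listed by role, were read from the same fit. Of 38 tested, 6 were higher and 0 lower (edgeR, 14 and 2 with unadjusted P below 0.05, against 17.9% and 18.3% of all genes). The 15.8% that were higher lie near the 12.5% of all genes, of which 13.3% were lower. The median of the 38 was 0.18 on the log2 scale. Their groups did not overlap in 39.5% upwards and 10.5% downwards, against 19.1% and 20.1% of all genes tested. Whether these shares differ was not tested, and the list was chosen with earlier results known. Among 11 fusion genes, VPS18, a core subunit of the HOPS and CORVET tethering complexes, rose from 32.5, 37.7 and 34.8 CPM to 86.8, 62.9 and 78.9 CPM, by 1.12 on the log2 scale (SE 0.16, adjusted P = 2.28e-06). The other HOPS subunits tested, VPS11, VPS16, VPS33A, VPS39 and VPS41, had log2 fold changes of 0.12, −0.07, 0.02, 0.05 and 0.24, and none passed. Of 14 selective receptors tested, TOLLIP, which binds ubiquitin, rose from 11.9, 10.4 and 9.69 CPM to 22.7, 23.9 and 22.7 CPM, by 1.11 (adjusted P = 0.000789), and SEC62, a receptor on the endoplasmic reticulum named after its values were seen, by 0.51 (adjusted P = 0.000639).

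Of 5 regulators and cofactors tested, 3 rose, where 12.5% of all genes tested were higher. TFE3, a transcription factor of the family that binds CLEAR elements, had 13.6, 16.9 and 14.2 CPM with DMSO and 23.0, 30.1 and 25.1 CPM with abemaciclib (log2 fold change 0.81, SE 0.22, adjusted P = 0.0074). TP53INP2, a nuclear protein that also binds LC3 and GABARAP proteins, had 22.9, 18.4 and 13.3 CPM and then 30.3, 38.2 and 43.8 CPM (1.04, adjusted P = 0.000529). Its relative TP53INP1, a p53 target, had 6.38, 8.61 and 1.21 CPM and then 13.6, 8.63 and 13.8 CPM (1.14, adjusted P = 0.0465), with an abemaciclib library level with the highest control. TP53INP1 had only 4 counts in DMSO replicate 3, so the setting with at least 10 counts in every library left it out. TFEB had 0.740 to 3.19 CPM and was not tested, MITF had a log2 fold change of 0.39 (95% interval −0.78 to 1.56), and FOXO3, a factor that drives autophagy genes in other tissues, one of −0.40 (−0.87 to 0.07).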

How the data were processed

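RNA of the 6 libraries was sequenced as 3′ mRNA libraries, in which reads start near the end of a transcript. After trimming in BBDuk, the authors mapped the reads with STAR 2.7.5b (hg38) and used featureCounts 2.0.1 to count them per GENCODE gene. The deposited values are these raw counts of 60656 genes, with no normalization. The strand setting of the counting is not given in the sources used here, and no molecular identifiers are described, so limits from counts cover counting error only.

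Libraries were grouped by the treatment in their labels. Counts were tested with edgeR 4.0.16 in R 4.3.3: low counts were removed by filterByExpr, libraries were scaled by TMM, and the quasi-likelihood test (glmQLFTest) was adjusted by the Benjamini–Hochberg method across all 10863 genes that passed, at a threshold of 0.05. CPM values were scaled by TMM. Each SE was derived from the fold change and its F statistic. Alternatives were DESeq2 1.42.0, edgeR scaled by DESeq2 size factors or by total counts alone, edgeR unfiltered or with at least 10 counts in every library, the replicate number as a block, and each library left out. The test was checked on simulated counts, with the same spread for every gene and far fewer changed genes than were called here. That check therefore does not cover the conditions of these data.

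The members, the list of other autophagy genes and the motifs were chosen with earlier results of these data known. Values per library were given for members past the threshold, for the member with the most counts in each step, and, chosen after the values were seen, for the others listed library by library. Of the other pathway genes, the 5 with the largest rise past the threshold were named by rule. Promoters are from RefSeq (GRCh38.p14), and gene positions and 3′ overlaps are from GENCODE v44 on the same assembly. Annotated processed copies of 6 members had at most a few counts. A planned comparison of protein sequences was not made.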

Additional observations from a re-analysis of the deposited data

How the results depend on the processing

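BECN1, WIPI1, MAP1LC3B, GABARAPL1 and GABARAPL2 passed the threshold under every alternative run, while RB1CC1, EPG5 and ATG12 did not. Over all genes, 1354 were higher and 1442 lower, and the other settings gave 981 to 1412 higher and 1132 to 1529 lower. The count of 7 members higher was 5 to 8 when a library was left out and 6 with DESeq2. The count of 1 member lower was 0 with DESeq2, 2 with at least 10 counts in every library, where ATG4C was added, and 0 to 1 when a library was left out. The members' median log2 fold change was 0.0947 to 0.166 when a library was left out. The count of 6 other pathway genes higher was 5 with DESeq2, total counts only, at least 10 counts in every library or the replicate block. It was 5 to 9 when a library was left out. The count of 0 other pathway genes lower was 1 with total counts as the only scaling, and 0 to 1 when a library was left out.

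Same-numbered libraries had correlations of −0.043, 0.007 and −0.089 in their deviations from the group means. Those of differently numbered libraries were −0.055 to 0.096. No shared replicate effect was thus seen, but with 3 libraries per group this cannot show whether the numbers mark pairs. With the number as a replicate block, 1139 genes were higher and 1280 lower, and 6 members were higher and 0 lower. The calls lost under it were those of RB1CC1 (adjusted P = 0.0571) and EPG5 (0.0527).

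Values near 0 changed sign: ATG2B was 0.0019 with DESeq2, 0.0025 with its size factors in edgeR, 0.0008 with no filter and 0.0024 with the replicate block, ATG16L1 was −0.0011 with total counts only and −0.0239 with the replicate block, and ATG14 was 0.0106 with the replicate block. With a library left out, log2 fold changes were −0.18 to 0.25 for ATG16L1, −0.0219 to 0.137 for SQSTM1, −0.20 to 0.22 for ATG14, −0.20 to 0.19 for ATG2B, −0.24 to 0.13 for ATG13, −0.0209 to 0.318 for ATG3, −0.0099 to 0.308 for WIPI2, −0.0426 to 0.209 for ATG101 and −0.26 to 0.0362 for ULK1. The cause of these changes was not tested. Too few counts kept 4 members out of the test, and whether depth or overlapping annotation caused this was not tested. The interval of PIK3R4, at 7.23 CPM with DMSO, reached 1.07, above the rise of BECN1.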
